A study of Mus musculus with 4 samples.

Results

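Newborn AT1 cells are described here as the 2898 of 3149 cells (92.0%, exact Clopper-Pearson interval 91.0 to 93.0) of the postnatal day 3 (P3) library that carried enough AT1 marker RNA, out of 9519 cells in the 4 libraries of the series. Values were unlogged, the UMIs (unique molecular identifiers, 1 per captured transcript) of Ager, Hopx, Pdpn, Aqp5, Rtkn2, Clic5, Akap5 and Emp2 were summed per 10000 UMIs of a cell, and cells at or above 0.5 times the median sum were kept. The median was 265.8 and the threshold 132.9 per 10000. The nearest cells left out had sums of 132.2, 132.1 and 130.2, the nearest kept 134.0, 135.1 and 135.2, and 33 cells lay within 10% of the threshold. Kept cells had sums of 214, 271 and 340 per 10000 at the 10th, 50th and 90th percentile.

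The cells came from lungs of P3 mice of a mixed FVB/C57BL6 strain that carried Sftpc-CreER, Rosa26-Zsgreen and Hopx-RFP and had 1 to 2 doses of tamoxifen, and all libraries came from mice of this genotype. Sftpc-CreER is an inducible recombinase driven by the gene of surfactant protein C, so the green Zsgreen reporter marks cells of the AT2 lineage, and Hopx-RFP is a red reporter of Hopx. Dissociated cells that were RFP+ and Pdpn+ but GFP- and CD45- were sorted after 45 minutes at room temperature in neutral protease, elastase, collagenase and DNase, and sequenced with the 10x 3' protocol. The series holds 1 library at P3, P15 and P60 for AT1 cells and 1 at P60 for AT2 cells (2940, 1337 and 2093 cells in the 3 libraries other than P3). The labels do not say how many animals each library pooled.

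Alveolar type I (AT1) cells are the thin, very large epithelial cells across which gas moves between air and capillary blood. They are joined to each other and to surfactant-producing AT2 cells by tight junctions, lie on a basement membrane fused with that of the capillary, and send signals to vessels and mesenchyme. In the mouse the days after birth are when the saccules of the lung start to be divided into alveoli, and AT1 cells spread over the new surface.

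A single library has no replicate, so the levels carry counting error only, no test was possible and no p-value is given. The kept cells held 23451069 UMIs, with a median of 7326 per cell (3081 to 24285) and 2508 detected genes. The 251 cells left out had a median of 12010.0 UMIs. Of these, 129 carried 5 or more ciliated-cell markers and 23 carried 4 or more endothelial markers, called ciliated-like and endothelial-like here. Levels in them are set beside those of the kept cells to show how much AT1 RNA cells of another kind in the same library carried. Both kinds were drawn from cells under the threshold, with marker sums up to 104.9 (ciliated-like) and 132.1 (endothelial-like) per 10000. Pooled levels are given as CPM (a gene's UMIs per 1000000 UMIs of all kept cells) with exact Poisson intervals, and values within a cell as UMIs per 10000. A transcript is counted once at its 3' end whatever its length, so levels of different genes are set side by side without a length correction. The P3 library shared 15, 5 and 11 cell barcodes with the P15, P60 AT1 and P60 AT2 libraries.

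**Figure D1:**
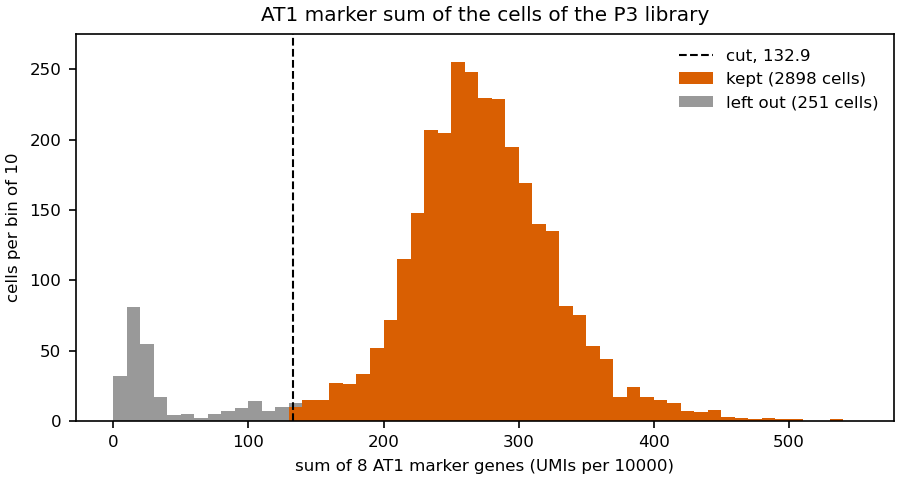
Number of cells of the P3 library (vertical axis) by the sum of the 8 AT1 marker genes in UMIs per 10000 (horizontal axis, bins of 10), kept cells in orange and cells left out in grey. The dashed line is the threshold at 132.9, and the kept cells form 1 peak around their median of 271.

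The kept cells carried all 8 AT1 markers, each at 501 CPM or more. Ager, a membrane receptor of glycated proteins, ranked behind Malat1 and Tmsb4x alone when ribosomal, mitochondrial, haemoglobin and provisional genes were set aside. It had 16669 CPM (interval 16617 to 16722) in kept cells, 1119 in ciliated-like and 2319 in endothelial-like cells. In single kept cells Ager (chr17:34597862-34600936, plus strand, protein coding, GRCm38) stood at 124, 168 and 218 per 10000 at the 10th, 50th and 90th percentile. Emp2, a tetraspan-type membrane protein, had 3791 CPM, the water channel Aqp5 1797, the kinase anchor Akap5 1522, the homeodomain protein Hopx 979, podoplanin (Pdpn) 839, Clic5 803 and the rhotekin family gene Rtkn2 501 CPM. These 8 genes chose the cells, and Hopx and Pdpn also chose them in the sort, so their levels are a description. Together they made up 2.69% of all UMIs.

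Among 24 other AT1 genes, 23 reached 100 CPM, which is about 1 UMI in a cell of 10000, against 10.7% of the 13992 listed genes (1493). The same 10.7% stands beside the count of genes at 100 CPM in each list below. The claudin Cldn18 led with 4480.1 CPM (4453 to 4507), against 727 CPM in ciliated-like and 625 in endothelial-like cells. The orphan receptor Gprc5a had 1493 CPM, the metalloproteinase inhibitor Timp3 1479.6, the small heat shock protein Cryab 1389, the keratin Krt7 1377, the scaffold Ahnak 1216, the cortical protein Lmo7 1102 and the tetraspanin Tspan8 915. All 8 were lower in ciliated-like and in endothelial-like cells than in kept cells. They are the members of highest level in kept cells, and the other cells lay under the marker threshold, so this is a description. Cyp2b10, a cytochrome P450, was the only member under 20 CPM, at 15.4, and is named after its value was seen.

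Actin and cortical genes took 4.91% of the UMIs, with 18 of 22 members at 100 CPM or more. The thymosins Tmsb4x and Tmsb10, which bind actin monomers, had 21310.4 and 3936 CPM. Cytoplasmic beta and gamma actin, Actb and Actg1, had 6846 and 4775 CPM. The myosin light chains Myl6 and Myl12a had 2776 and 2731 CPM, and moesin (Msn), which ties actin to the membrane, 807. The actins had similar medians over cells, but Actb reached further up. Actb stood at 28.8, 48.3 and 151 per 10000 at the 10th, 50th and 90th percentile and Actg1 at 28.4, 45.8 and 68.3.

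Junction genes were present for both tight and adherens junctions, with 13 of 17 members at 100 CPM or more. Beside Cldn18, these held Cldn3 (611 CPM), the junction adhesion molecule F11r (479.9), the catenins Ctnna1 (381) and Ctnnb1 (315), Epcam (336), Cldn7 (273) and E-cadherin, Cdh1 (217). Relative to its level the spread over cells was wider for Cldn3, with Cldn18 at 29.8, 44 and 60.5 per 10000 at the 10th, 50th and 90th percentile and Cldn3 at 1.07, 5.31 and 12.9.

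Caveolae are flask-shaped pits of the plasma membrane for which AT1 cells are known, and 7 of 9 caveola genes reached 100 CPM. Their coat proteins Cav1 and Cav2 had 630.0 and 430.4 CPM. The cavin genes Sdpr, Ptrf and Prkcdbp had 563, 478 and 279 CPM, and the neck protein Ehd2 399. The muscle caveolin Cav3 was at 0.384 CPM, and is named after its value was seen. Cav1 and Sdpr were higher in the 23 endothelial-like cells than in kept cells, and Ptrf and Cav2 were close. Endothelial-like cells had 1140.4 CPM of Cav1, 899 of Sdpr, 502 of Ptrf and 445 of Cav2.

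Water and ion transport genes reached 100 CPM in 12 of 19 cases. Aqp5 at 1797 CPM was joined by Aqp1, the water channel better known from endothelium, at 1168 CPM, which was close to the 1055 CPM of endothelial-like cells and far above the 61.2 CPM of ciliated-like cells. The chloride channel family genes Clic3 and Clic5 had 1551 and 803 CPM. All 3 subunits of the epithelial sodium channel, which draws fluid out of the airspace after birth, were seen, with 312 CPM of Scnn1a, 266 of Scnn1b and 476 of Scnn1g. The sodium pump subunit Atp1b1 had 344 CPM and the zinc and manganese carrier Slc39a8 543.

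**Figure D2:**
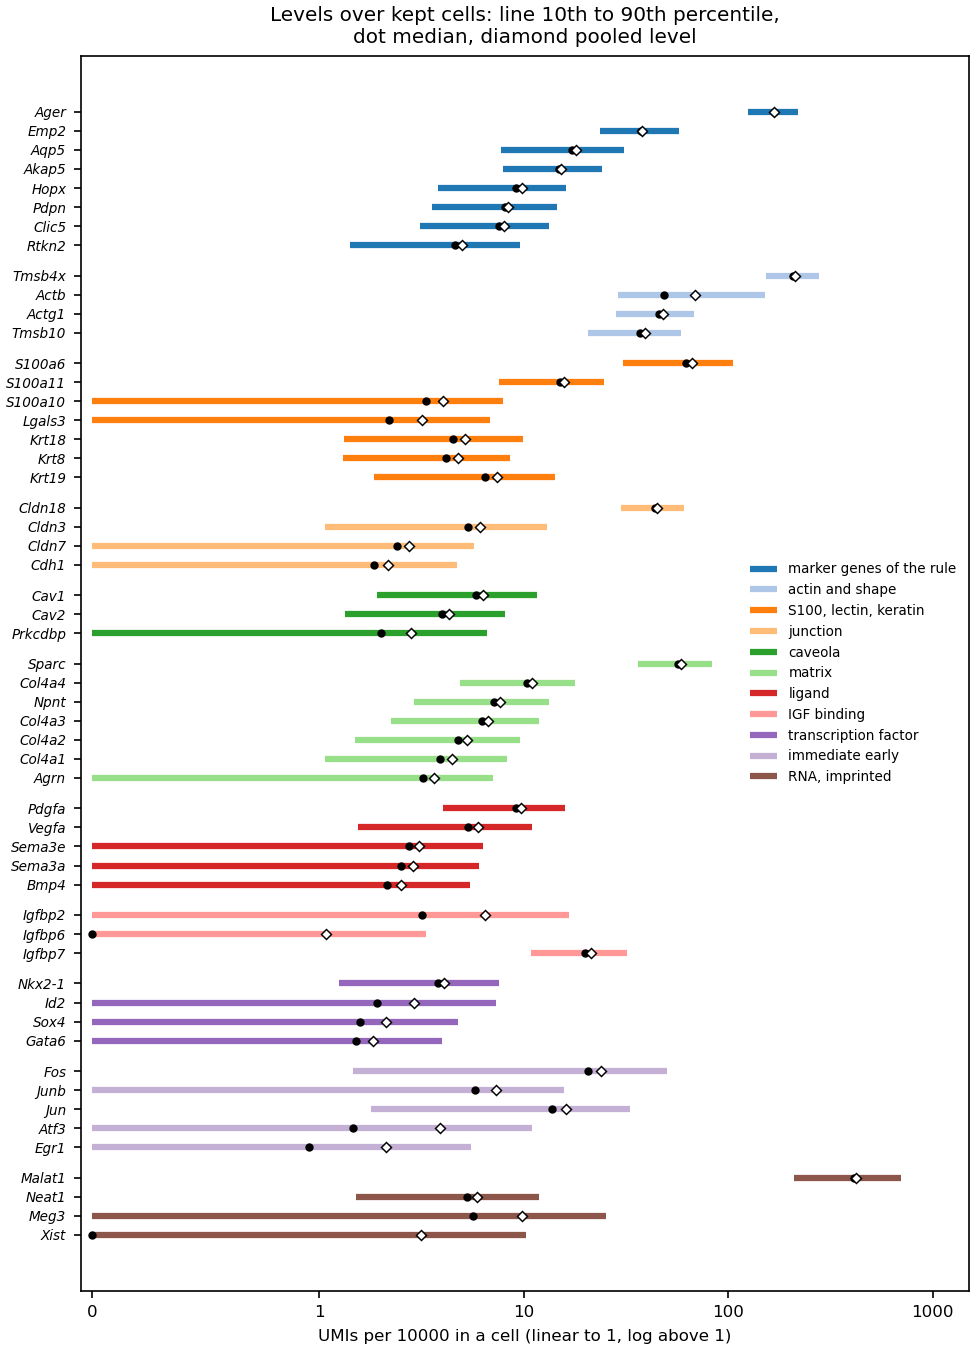
UMIs per 10000 in kept cells for genes grouped by role (colours), on an axis that is linear up to 1 and logarithmic above, with a line between the 10th and 90th percentile of 2898 cells, a dot at the median and a diamond at the pooled level. Malat1, Tmsb4x and Ager lie furthest right, and Actb, Igfbp2, Fos and Meg3 have long lines with the pooled level above the median.

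Of 20 basement membrane genes 15 reached 100 CPM, none of the 15 had a high spread over cells by the measure introduced below, and together the list made up 1.13% of the UMIs. Sparc, a matrix protein that binds collagen IV, led with 5843 CPM (5812 to 5874), against 331 CPM in ciliated-like and 2697 in endothelial-like cells. Nephronectin (Npnt), an integrin ligand, had 767 CPM and agrin (Agrn) 365. The 5 members under 20 CPM were Col4a6 (15.8), Lamb1 (0.554), Nid1 (0.512), Col18a1 (1.41) and Nid2, which had no UMI (a count of 0 allows up to 0.128 CPM), all named after their values were seen.

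Collagen IV is built from 6 chains whose genes lie in head-to-head pairs, and both chains of 2 pairs were seen in the newborn AT1 cells. Col4a3 and Col4a4 had 669.7 and 1094 CPM, and Col4a1 and Col4a2 446 and 529. Endothelial-like cells had the reverse order, with 733 and 771 CPM of Col4a1 and Col4a2 and 80.4 and 170.3 of Col4a3 and Col4a4. On chromosome 8 of GRCm38 (GENCODE M21) the start of Col4a1 (11312826, minus strand) and that of Col4a2 (11312805, plus strand) are 21 bases apart. The annotated genes of this pair overlap there. On chromosome 1 the starts of Col4a4 (82586849, minus strand) and Col4a3 (82586921, plus strand) are 72 bases apart. The 71 bases between the starts of that pair are printed because the pair is read in both directions from them, here on the minus strand of chr1:82586850-82586920 (RefSeq table, GRCm38.p6), all in lower case.
Col4a3 to Col4a4, stretch between starts: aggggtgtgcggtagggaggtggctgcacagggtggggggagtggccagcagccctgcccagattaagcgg

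Across the 2898 cells the paired chains went together. The measure is a noise-corrected correlation, the covariance of a gene pair around what cell depth predicts, divided by the standard deviations left after Poisson counting noise is taken off. It is a description over cells of 1 library, which share its depth and handling. Col4a1 with Col4a2 gave 0.93, the highest of 8778 pairs of named genes, and Col4a3 with Col4a4 gave 0.72. Between the pairs the values were lower, from 0.36 (Col4a1 with Col4a3) to 0.49 (Col4a1 with Col4a4). Of all 8778 pairs 208 (2.37%) reached 0.5, and the median pair was at 0.04. Other neighbours on a chromosome did not all go together. Of 25 named pairs with starts within 1000000 bases, 8 reached 0.5, with a median of 0.17, while Prdx2 and Junb, 9131 bases apart, gave -0.04.

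Secreted ligands reached 100 CPM in 12 of 35 cases. The most abundant was Pdgfa, the platelet-derived growth factor that acts on alveolar myofibroblast precursors, with 973 CPM (960.3 to 986), against 277 CPM in ciliated-like and 71 in endothelial-like cells. Vegfa, the growth factor for capillaries, had 598 CPM, against 28.7 in ciliated-like cells. The semaphorins Sema3e and Sema3a, which guide vessels and axons, had 308 and 287 CPM, the ephrin Efna1 303 and Bmp4 252. Sonic hedgehog (Shh), a morphogen to the mesenchyme that is outside the naming rule and was added after its value was seen, had 166 CPM. Cyr61 and Ctgf, matricellular genes that are also targets of YAP and TAZ, had 926 and 375 CPM.

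Receptors reached 100 CPM in 6 of 27 listed cases. Among them Igf1r had 240.2 CPM, the semaphorin and VEGF coreceptors Nrp2 and Nrp1 217 and 159.6, the collagen receptor Ddr1 125 and Tgfbr2 109. Of the 10 listed matrix receptors 5 reached that level, led by dystroglycan (Dag1, a laminin and agrin receptor) with 866 CPM, the integrin chains Itgb1 (348), Itgb6 (149.9) and Itga3 (139), and the tetraspanin Cd151 (198).

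Some matrix and ligand genes varied together across cells. For Col4a1, Col4a2, Col4a3, Col4a4, Agrn, Dag1, Vegfa, Sema3e, Sema3a and Pdgfa, a set picked after the correlations were seen, the 45 pairs ranged from 0.27 to 0.93 with a median of 0.55. Since the 10 genes were picked for their correlations, that median is a description. Over all 18 genes of the basement membrane, matrix receptor and ligand lists that could be measured the median of 153 pairs was 0.33 (range -0.10 to 0.93), and over the 72771 pairs of all 382 genes 0.03. Agrn with Vegfa gave 0.71 and Agrn with Dag1, a ligand and its receptor, 0.68. In the 1449 cells with the most UMIs (median 9136) the median correlation was 0.57 and the median sum of the set 60.1 per 10000, and in the 1449 with the fewest (median 6047) they were 0.52 and 57.5. Cldn3 ran against the set most strongly for Pdgfa (-0.503) and Sema3e (-0.499), and less for Agrn (-0.34) and Col4a4 (-0.19). Only 5 of the 8778 named pairs (0.057%) were at -0.5 or below, Cldn3 with Pdgfa among them.

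Transcription factors of the lung epithelium reached 100 CPM in 9 of 22 cases. Nkx2-1, the master regulator of lung epithelium, had 407 CPM (399 to 415), against 279.6 in ciliated-like and 75.7 in endothelial-like cells. Gata6 had 183 CPM, the forkhead factor Foxa2 136, the Kruppel-like factor Klf5 124 and the Iroquois factors Irx3 and Irx1 146 and 134. The progenitor factor Sox9 was at 4.56 CPM, the airway factor Sox2 at 0.0853 and the AT2 factor Etv5 at 5.24, all 3 named after their values were seen. Id2, an inhibitor of helix-loop-helix factors, had 291 CPM, and its relatives Id3 and Id1, which respond to BMP signals, 1068 and 448.

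YAP and TAZ are the coactivators of the Hippo pathway that respond to cell stretch. Of 20 genes of that pathway 6 reached 100 CPM, against 10.7% of all listed genes. TAZ (Wwtr1) had 195 CPM and its DNA-binding partner Tead1 246, while Yap1, which is named after its value was seen, had 31.2. The upstream regulator Wwc1 and the YAP-binding Amotl2 had 193 and 161 CPM. The targets Cyr61 and Ctgf had a noise-corrected correlation across cells of 0.19. The value of Cyr61 was higher with Fos (0.50), and that of Ctgf with Igfbp2 (0.37) and Sema3e (0.38).

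Insulin-like growth factor genes were mostly those of binding proteins. Igfbp7, a secreted protein related to the binding proteins, had 2132 CPM, Igfbp2, which binds IGF1 and IGF2, 645 and Igfbp6 108. The ligands Igf1 and Igf2 were at 0.298 and 4.39 CPM and Insr at 25.8. Igfbp7 was seen in nearly every cell, at 10.9, 19.9 and 31.9 per 10000 at the 10th, 50th and 90th percentile. Igfbp2 was spread more unevenly, at 0, 3.16 and 16.7.

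How much single cells differed was measured as the extra-Poisson coefficient of variation (CV), the spread of a gene's level over cells in percent of its mean after cell depth and counting noise are taken off. Over the 1493 genes at 100 CPM or more its median was 23.2%, and 113 genes (7.57%) reached 50%. The 8 marker genes lay between 19.96% (Ager) and 38.5% (Aqp5), and the 93 ribosomal protein genes at that level had a median of 17.5%. The 10 steadiest genes at 500 CPM or more held several of the respiratory chain and ATP synthase, among them Atp5d (0%, no spread beyond counting), Atp5h (3.51%), Cox7a2 (5.28%) and Cox4i1 (8.4%), followed by Atp5l, Arf1, Sumo2, Selk, Chchd2 and Atp6v1g1. Immediate early genes stood at the other end, with 16 of 17 measured members at 50% or more. So did 3 of 4 keratins, 3 of 12 S100 and annexin genes, and none of 15 basement membrane genes. Within the actin group only Actb (75.1%) did, and among caveola genes only Prkcdbp (74.4%).

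**Figure D3:**
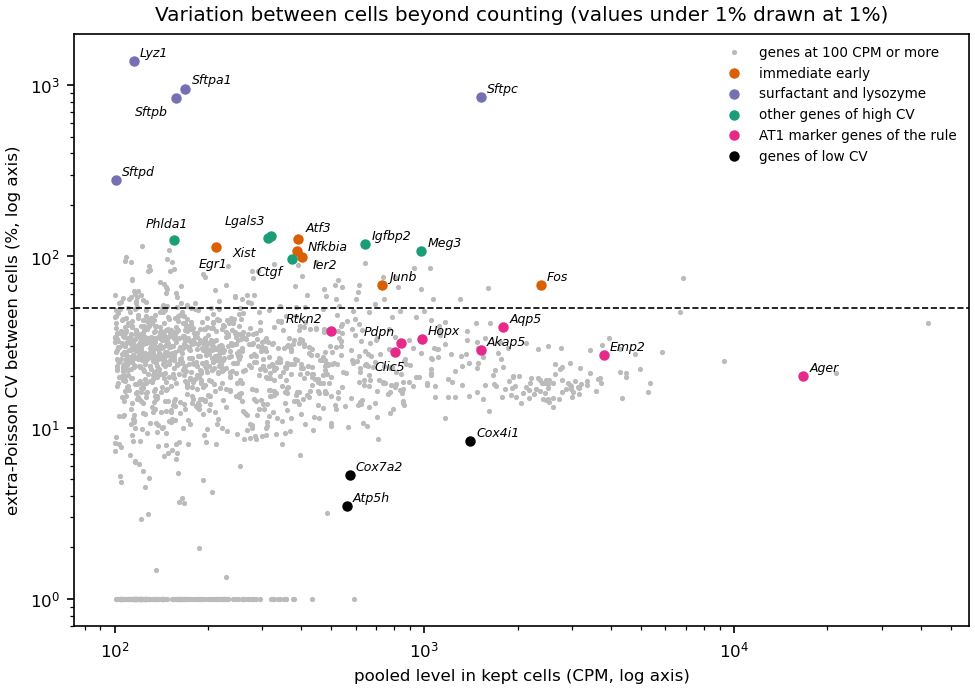
Extra-Poisson CV between kept cells in percent (vertical, log axis) against pooled level in CPM (horizontal, log axis) for the 1493 genes at 100 CPM or more in grey, with named genes in colour and the dashed line at 50%. The AT1 marker genes lie under the line, and the surfactant genes, Igfbp2, Meg3, Xist, Lgals3 and the immediate early genes above it.

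Among genes at 100 CPM or more, surfactant and lysozyme genes had the highest CVs, and few cells held most of their UMIs. Lyz1 had 1390.1%, Sftpa1 956%, Sftpc 851%, Sftpb 845% and Sftpd 279%. The 41 kept cells (1.41%) with 50 or more Sftpc UMIs per 10000, a threshold set after the data were seen, held 85.9% of the Sftpc, 87% of the Sftpa1, 79.6% of the Sftpb and 88.9% of the Lyz1 UMIs. They had a median of 14504 UMIs and a marker sum of 161, against 7300.0 UMIs and 271 in the other kept cells. Whether they are doublets was not tested. Without them the CV of Sftpc was 123%, its level 220.0 CPM instead of 1519.8, and 108 genes had a CV of 50% or more. The values below for Igfbp2, Meg3, Lgals3 and Fos kept CVs of 118, 109, 133 and 68.6% without these cells.

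Igfbp2 (chr1:72824503-72852474, plus strand, protein coding, GRCm38) ran over cells from no UMI to a high level. It had a CV of 118%, 27.4% of the kept cells had no UMI of it where 1 shared level would give 1.67%, and the highest cell had 63 per 10000. Its level was 645 CPM (635 to 656) in kept cells, 100.5 in ciliated-like and 33.1 in endothelial-like cells. A UMI was seen in 72.6% of kept cells (median 7325.5 UMIs), in 60.5% of ciliated-like (median 12053) and in 17.4% of endothelial-like cells (median 7971). The genes that went with it most were Sema3e (0.56), the prostaglandin synthase Ptgs1 (0.55), the collagen chaperone Serpinh1 (0.52), Sec61g of the secretory channel (0.52) and Prdx2 (0.50), over 2898 cells and 382 genes. With Cldn3 it gave -0.41.

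Meg3 (chr12:109541001-109571726, plus strand), a maternally expressed long noncoding RNA, was as uneven, and no measured gene followed it closely. Its level was 978 CPM and its CV 108%, with 0, 5.66 and 25.2 per 10000 at the 10th, 50th and 90th percentile. No UMI was found in 24.7% of kept cells, where 1 shared level would give 0.319%, and a UMI in 75.3% of kept, 29.5% of ciliated-like and 39.1% of endothelial-like cells. The highest of its correlations to the 381 other genes was 0.23, with P4hb, and the lowest -0.19, with Cyb5a. Both genes are named for that place alone. Of 17 listed imprinted growth genes 2 reached 100 CPM, near the share of 10.7% over all listed genes. They were Meg3 and the neuronal proteolipid gene Nnat (419 CPM, CV 59.5%). Igf2 and H19, abundant in the fetus, were at 4.39 and 0.554 CPM, and are named after their values were seen.

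**Figure D4:**
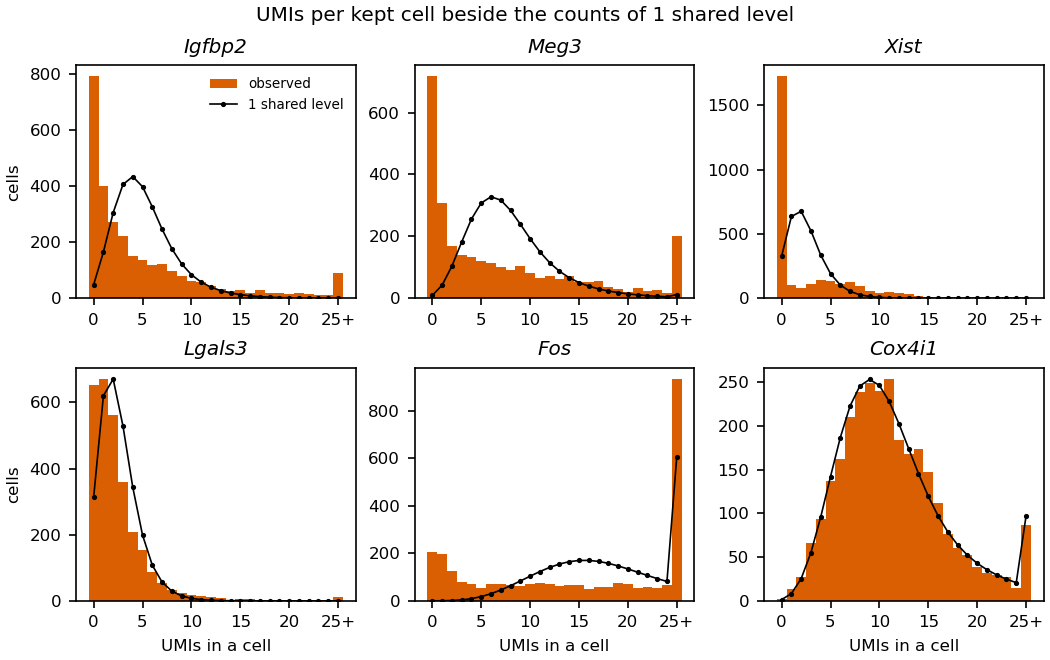
Number of kept cells (vertical) by UMIs in a cell (horizontal, 25 and more in the last bin) for 6 genes, observed in orange beside the numbers that 1 shared level and the depth of each cell would give in black. Igfbp2, Meg3 and Xist have a peak at 0, Fos has both a peak at 0 and a long tail, and Cox4i1 follows the black line.

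Immediate early genes, which are switched on within minutes of a stimulus or of tissue dissociation, were abundant and uneven. Fos had 2372 CPM with 1.47, 20.6 and 50.1 per 10000 at the 10th, 50th and 90th percentile, Jun 1605 CPM with 1.79, 13.7 and 33.2, and Atf3, a stress-induced factor, 389.7 CPM with 0, 1.46 and 11. In ciliated-like cells Fos had 2259 CPM and in endothelial-like cells 1216. The phosphatase gene Dusp1 had 802 CPM, Klf6 821, Junb 732, Jund 529.9 and Ier3 524. CVs were 68.2% for Fos, 127% for Atf3, 113% for Egr1, 108% for the NF-kappaB inhibitor Nfkbia and 99.8% for Ier2. The summed list of 24 listed genes stood at 31.3, 99.3 and 194 per 10000 at the 10th, 50th and 90th percentile. These cells were 45 minutes in enzymes before the sort, and the part of the dissociation in these levels was not tested.

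Of the immediate early genes, 9 varied together. For Fos, Fosb, Jun, Junb, Atf3, Ier2, Egr1, Btg2 and Dusp1, picked after the correlations were seen, the 36 pairs lay between 0.38 and 0.77, with a median of 0.59. Over all 15 members of the list that could be measured the 105 pairs ran from -0.09 to 0.77 with a median of 0.41, so not every member followed the 9, and Nfkbia and Klf6 gave 0.42 and 0.47 with Fos. Fos went most with Fosb (0.77), Jun (0.76), Junb (0.69), Atf3 (0.63) and Egr1 (0.62). In the 1449 cells with the most UMIs the median was 0.59 and in the 1449 with the fewest 0.58. Id genes had lower values with the set, 0.37 between Id1 and Fos, and 0.47 between Id1 and Id3. With the matrix and ligand set the immediate early genes had a median of -0.12 (range -0.28 to 0.07).

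Several immediate early promoters hold the letters TGACGT, the core of the element that CREB and ATF factors bind, and the promoters of 3 members of the set are shown with it. TGACGT was searched on both strands in the 200 bases before each start of the RefSeq table. It was found in 5 of the 22 promoters of the list that the table holds (22.7%), those of Atf3, Btg2, Dusp1, Fos and Ppp1r15a. Of all 32851 promoters 5.85% held it, as did 1 of 19 basement membrane promoters (5.26%). None of 8 promoters of 7 marker genes did, a number too small to set against 5.85%. Capitals mark the matches (ACGTCA being TGACGT on the other strand), which in Fos end 61 bases, in Atf3 3 bases and in Btg2 159 bases before the start, the last being overlapping matches on both strands, and each sequence is 5′ to 3′ on the strand of the gene (GRCm38.p6). A match describes letters and is not a shown binding site, and annotated starts of a gene can differ between RefSeq and GENCODE.
Fos, chr12:85473690-85473889, plus strand: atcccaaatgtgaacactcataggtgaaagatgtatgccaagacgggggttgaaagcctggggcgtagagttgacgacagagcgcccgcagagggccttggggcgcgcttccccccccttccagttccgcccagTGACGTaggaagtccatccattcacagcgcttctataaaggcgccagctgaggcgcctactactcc
Atf3, chr1:191183334-191183533, minus strand: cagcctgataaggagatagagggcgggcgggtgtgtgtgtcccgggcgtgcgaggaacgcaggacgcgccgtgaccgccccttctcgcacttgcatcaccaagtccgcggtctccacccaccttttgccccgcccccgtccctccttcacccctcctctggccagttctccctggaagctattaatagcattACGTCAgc
Btg2, chr1:134079156-134079355, minus strand: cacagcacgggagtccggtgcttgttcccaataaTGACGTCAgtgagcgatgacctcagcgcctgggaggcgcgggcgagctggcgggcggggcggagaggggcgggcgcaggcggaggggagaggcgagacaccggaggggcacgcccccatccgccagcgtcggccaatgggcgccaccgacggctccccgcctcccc

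Several S100, annexin and keratin genes varied together with the lectin Lgals3. Lgals3 (chr14:47367751-47386160, plus strand, protein coding, GRCm38) had 319 CPM and a CV of 132%, and its 1% of highest cells held 12% of its UMIs. The calcium-binding proteins S100a6 and S100a11 had 6676 and 1570.4 CPM, the annexin partner S100a10 403, the membrane-binding annexins Anxa3, Anxa2 and Anxa1 1309, 1048 and 483. The simple-epithelial keratins Krt19, Krt18 and Krt8 had 743, 517 and 476 CPM with CVs of 56.6, 56.3 and 65%, while Krt7 had 1377 CPM and 32.4%. Lgals3 went most with S100a10 (0.79), Krt8 (0.75) and Anxa2 (0.64). S100a10 and Anxa2, which form a complex, gave 0.69, and Krt8 and Krt18, the keratin pair of simple epithelia, 0.74. A few cells were far above the rest. In 12 kept cells 25 or more Lgals3 UMIs were seen, where 1 shared level would give 4.71e-06 cells. The 1% of cells highest in each partner held 7.13% of the S100a10, 6.7% of the Krt8, 5.68% of the Krt18 and 4.36% of the Anxa2 UMIs. The part of such cells in these correlations, and in those of the set below, was not tested.

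For Lgals3, S100a10, S100a6, S100a11, Anxa2, Anxa1, Krt8, Krt18, Krt19 and Krt7, picked after the correlations were seen, the 45 pairs lay between 0.21 and 0.79 with a median of 0.56. Over all 14 measured S100, annexin and keratin genes the median of 91 pairs was 0.45. In the 1449 cells with the most UMIs the median was 0.60 and in the 1449 with the fewest 0.44, and the part of depth in that gap was not tested. The set's median with the immediate early genes was -0.07 and with the matrix and ligand genes -0.03. Krt18 differed from the others of its set, with -0.34 to Sema3e and 0.32 to Cldn3. Hopx was in none of these sets. Among the 5 genes most like it across cells were Kif5b (0.33), Sema3a (0.32), the AT1 gene Gramd2 (0.30) and the calcineurin subunit Ppp3ca (0.29). For Ager no partner is given, since its CV was just under the 20% required.

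**Figure D5:**
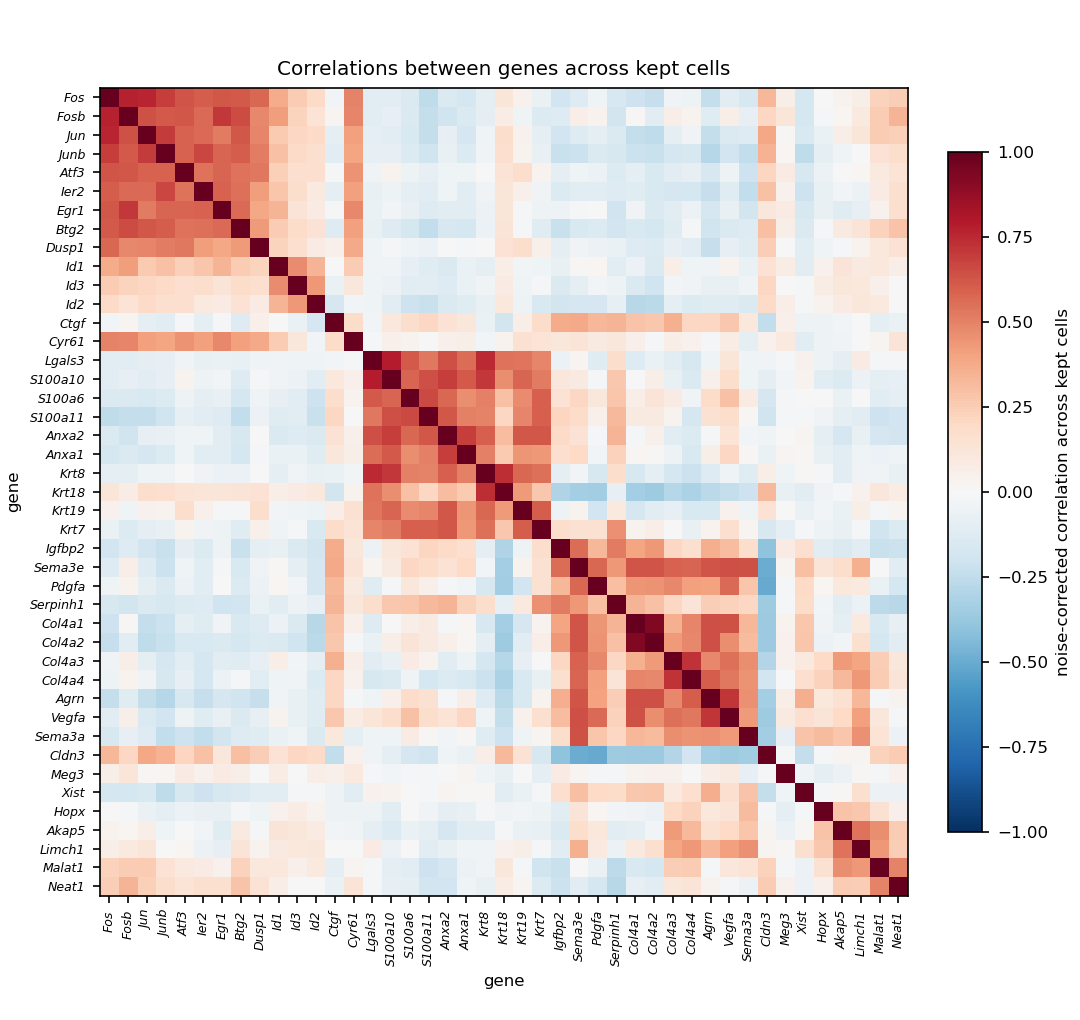
Noise-corrected correlations between genes across the 2898 kept cells, with the same genes on both axes and red for positive and blue for negative values. The block at the top left holds the immediate early genes, the block after Ctgf and Cyr61 holds Lgals3 and the S100, annexin and keratin genes, and the next holds Igfbp2, Serpinh1, the collagen IV chains and the ligands, with Cldn3 in blue against it.

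Few newborn AT1 cells carried RNA of division genes. All 13 listed G2 and M phase genes were under 20 CPM, as were 8552 of all 13992 listed genes. Together the 13 made up 0.000985% of the UMIs. After each cell was thinned to 3000 UMIs, 64 of 2898 kept cells (2.21%, exact interval 1.70 to 2.81) had 1 or more of them and 1 cell (0.0345%, 0.000874 to 0.192) had 2 or more different ones. Unthinned, 187 cells (6.45%) had 1 or more and 2 cells had 2 or more. Among the 251 cells left out 4 (1.59%, 0.436 to 4.03) had 2 or more when thinned. No S phase gene reached 100 CPM, with Pcna at 28.3. Cyclin D2 (Ccnd2) had 193 CPM and cyclin D3 135, and the cell cycle inhibitor Cdkn1a had 148 CPM and a CV of 96.3%.

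Cells with Xist and cells with Y-linked RNA were both present. Xist (chrX:103460366-103483254, minus strand), the RNA that silences an X chromosome in female cells, had 3 or more UMIs in 984 kept cells (34.0%, exact interval 32.2 to 35.7) and none in 1725 (59.5%, 57.7 to 61.3). A UMI of Ddx3y, Eif2s3y, Kdm5d or Uty was seen in 23 of the 984 cells (2.34%) and in 616 of the 1725 (35.7%). The cells compared below are 961 with 3 or more Xist UMIs and no Y UMI (median 7646 UMIs) and 616 with a Y UMI and no Xist (median 7582). They were chosen by these genes, whose levels between them are no finding.

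AT1 marker levels of Xist cells and Y cells lay within 1.5-fold of each other for all 8 genes. Ager had 16585 CPM in Xist cells and 16296 in Y cells, Hopx 988 and 963, and Rtkn2 438 and 598. Of 1553 genes at 100 CPM in either group, 7 (0.451%) were at least 1.5-fold higher and 13 (0.837%) at least 1.5-fold lower in Xist cells. The higher genes include Xist and the lower ones Eif2s3y, which chose the cells. Igfbp2 was higher, with 811 CPM (792 to 831) in Xist cells and 510.2 (491 to 529.9) in Y cells. Immediate early genes were among the lower ones. Atf3 had 292 CPM in Xist cells and 493 in Y cells, Junb 572 and 909.5, Ier2 295 and 530.3, and Nfkbia 284 and 549. Cldn3 had 479 CPM in Xist cells and 725 in Y cells. Sex and animal cannot be told apart here, and the intervals cover counting error only.

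The variation was present within either kind of cell. The CV of Igfbp2 was 105% in Xist cells and 127% in Y cells, that of Meg3 102 and 109%, that of Fos 68.8 and 64.3%, and that of Lgals3 136 and 116%. The median correlation of the immediate early set was 0.53 in Xist cells and 0.59 in Y cells, that of the S100, annexin and keratin set 0.58 and 0.47, and that of the matrix and ligand set 0.53 and 0.51. The sets were picked for their correlations over all kept cells, the Xist and Y cells among them, so these medians are a description.

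Markers of endothelial, mesenchymal and blood cells were mostly near 0 in the kept cells, while some AT2 and club markers were not. Of 7 listed club markers only Scgb1a1 reached 100 CPM and 4 were under 20 CPM, as were 7 of the 22 AT2 markers. At least 3 AT2 markers were found in 94.4% of the kept cells and at least 3 club markers in 14.1%. Of 12 endothelial markers 11 were under 20 CPM, and Esam, an adhesion molecule, had 157 CPM. All 9 listed fibroblast markers, all 7 listed pericyte and smooth muscle markers and all 3 listed erythroid markers were under 20 CPM. Over all 13992 listed genes 8552 were under 20 CPM as well. Ptprc, the gene of CD45, was at 0.213 CPM. Of the immune markers Csf1r had 59.8 CPM spread over 35.4% of kept cells, against 8.53% of ciliated-like cells, while 92.4% of the S100a8 UMIs lay in 1% of the cells. Msln, a mesothelial marker, had 603 CPM in kept cells, 34.3 in ciliated-like and 56.8 in endothelial-like cells.

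Ciliated markers showed a split within their list. Tppp3 and Sec14l3 had 975 and 644 CPM, and the other 10, Foxj1 among them at 2.3 CPM, were under 20. In endothelial-like cells Tppp3 and Sec14l3 had 454 and 80.4 CPM, and in ciliated-like cells 4221 and 1610.1. Scgb1a1, the secretory protein of airway club cells, had 1042 CPM in kept cells and 970.0 in endothelial-like cells alike, and 22398 in ciliated-like cells. At least 3 markers of 1 other cell type were found in 20.7% of the kept cells, and in 2.35% when the ciliated list was left out, with the AT2, club and erythroid lists not counted. Of 22 AT2 genes 7 reached 100 CPM. The summed AT2 list stood at 13.1, 22.8 and 38.5 per 10000 at the 10th, 50th and 90th percentile, up to 1879 in 1 cell. Its member Ctsh alone had a median of 13.3 per 10000, and Sftpc a median of 1.57. Ctsh had 1470 CPM in kept cells, 557 in ciliated-like and 203 in endothelial-like cells. The part of these markers in the spread between cells was not tested.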

How the data were processed

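Per the labels' protocols, sorted cells went through the 10x 3' protocol. Cell Ranger 1.3.1, Seurat 2.0.0, mm10 and hg19 are named per the submitters' processing notes with no role stated for hg19. The authors deposited natural log values, ln(1 + UMIs × 10000 / total), as the values themselves show. Unlogging gave whole UMIs recovered at 100% of the values (tolerance 0.05), and these were used for all measures. The members and gene lists were chosen with earlier results of these data known. No cell was removed as a doublet, no doublet caller was run and no clustering was done.

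Genes were named by a rule: the 8 marker genes, the 30 of highest level, up to 8 per list at 20 CPM or more, the 20 of highest CV from 100 CPM, the 10 of lowest CV from 500 CPM, and the 5 partners of Ager, Hopx, Igfbp2 and Fos. Others, such as members under 20 CPM, were named after their values were seen, and a few genes the rule names are not reported here. Ager failed the conditions of the last part. Correlations needed 200 CPM, a CV of 20% and 10% of the variance beyond counting, the last added after values above 1 were seen. It left 3 of 72771 pairs above 1 (highest 1.34), none among the named genes. The 3 gene sets that moved together were chosen after the correlations were seen. Intervals are at 95% and cover counting error only. Of 227 looked-up symbols 221 were in GENCODE M21. Alternatives were another threshold, total, thinning or set of cells. Python 3.11.15 and SciPy were used, and the measures were tested on simulated data.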

Additional observations from a re-analysis of the deposited data

How the results depend on the processing

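Genes at 100 CPM or more numbered 1493 to 1801 under the alternatives tried, and the count of CVs at or above 50% stayed within 1.5 times of 113 (101 to 153) except with all cells of the library (259) or with genes from 50 CPM (268) or only from 200 CPM (59). The share of cells kept was 86.4 or 93.8% with the threshold at 75 or 25% of the median sum, and 90.7% without the Sftpc-rich cells, an alternative chosen after seeing the data. Pairs at 0.5 or more numbered 163 to 213, but 9 by Pearson correlation of the deposited log values. That measure differs both in its log scale and in keeping the counting noise. The causes of these moves were not tested. The share of cells with 2 or more G2 and M phase genes was 0% when thinned to 2000 UMIs, with the threshold at 75% or without cells bearing other markers, and 0.254% over all cells. With 2 or more and 4 or more markers of another type in place of 3, 95.9 and 2.66% of the kept cells were counted, 25.5% of all cells had 3 or more, and 2.35% of the kept cells did without the ciliated list, chosen after seeing the data. Pooled levels of 12 of 223 named genes and CVs of 46 of 190 moved by over 1.5 times when all cells were taken. Leaving out the 25% of cells highest in immediate early genes moved 5 levels and 2 CVs. No paired analysis was possible because each group has 1 library and the results come from no test. Depth limits single genes under about 100 CPM, where a typical cell has no UMI.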

Other observations

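Protein-folding, antioxidant and antigen-presentation genes of the newborn AT1 cells add to the profile. Of 13 heat shock and chaperone genes 8 reached 100 CPM. The constitutive chaperones Hspa8 and Hsp90ab1 had 1052 and 962 CPM with CVs of 25.4 and 19.7%, the endoplasmic reticulum chaperones Hsp90b1 and Hspa5 408 and 341 CPM with 38.6 and 51.7%, and Hspb1 128 CPM with 82.5%. The stress-induced Hspa1a and Hspa1b, named after their values were seen, were at 14.4 and 2.26 CPM. Antioxidant genes reached 100 CPM in 10 of 20 cases, led by the peroxiredoxin Prdx6 with 2332 CPM and the lipid peroxide reductase Gpx4 with 1483. Prdx1 and Prdx2 went together across cells, with a noise-corrected correlation of 0.75.

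Class I genes were modest. H2-D1 had 448 CPM, B2m 270.4, H2-K1 186 and Tapbp 121, against 2153, 1434, 596 and 99.4 CPM in endothelial-like cells. H2-D1 and B2m, the chains of 1 complex, gave a correlation of 0.62. The interferon-induced Ifit3 had 49.7 CPM. Nuclear RNAs took 4.38% of the UMIs, and nearly all of it was Malat1, at 42244 CPM with 211, 412 and 698 per 10000 at the 10th, 50th and 90th percentile. Malat1 and its chromosomal neighbour Neat1 (588 CPM) gave 0.50. Ribosomal protein genes made up 20.8% and mitochondrially encoded genes 2.22% of the UMIs. The translation factor Eef1a1 ran against Myl6 (-0.53) and Emp2 (-0.51).

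Leaving aside Xist and Eif2s3y, S100a8 and S100a9 differed most of the genes at least 1.5-fold apart between Xist and Y cells. They had 3.52 and 2.19 CPM in Xist cells and 163 and 110.2 in Y cells. Their CVs in Y cells were 2195 and 2188%, since few cells held nearly all UMIs. The class I gene H2-Q1 had 101 CPM in Xist cells and 44.9 in Y cells. Ddx3x, a gene known to escape X inactivation, had 192 and 128.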
